A study of Homo sapiens with 24 samples.

Results

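The 8 genes described here, LCN2, SAA1, SAA2, PI3, SLPI, DEFB1, CFB and C3, encode secreted acute-phase and antimicrobial proteins. They were taken by symbol and are 8 of the 20046 genes named on the arrays. They are represented by 11 of 47323 probes, of which SAA1 has 3 and C3 has 2. RNA was measured on Illumina bead arrays in SCC-61, a head and neck squamous carcinoma line, and in HaCaT, an immortalized but nontransformed line of skin keratinocytes, to ask how the cancer line and the nontransformed line respond to AMP-18. AMP-18, antrum mucosal protein 18, is a secreted protein of the stomach lining, and the study's methods describe a recombinant human form purified from bacteria. All cells, the untreated ones included, were first starved in medium with 1% serum. The 8 groups were SCC-61 and HaCaT, each kept without treatment or exposed to 2 µg/ml of AMP-18, for 2 h or 24 h, with 3 arrays a group and 24 in all. Each line is a single cell line, and the labels do not state whether replicates were grown as independent cultures. All p-values therefore reflect the spread among these samples alone, which may be technical.

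Proteins of this kind are made at epithelial surfaces, and some of them also in the liver during inflammation. Interleukins and tumor necrosis factor raise the transcripts of many of them, though not of all, largely through NF-kB, C/EBP and STAT factors. Lipocalin 2 (LCN2) captures the iron carriers of bacteria, serum amyloid A (SAA1 and SAA2) binds lipoproteins and attracts leukocytes, elafin (PI3) and secretory leukocyte protease inhibitor (SLPI) block the elastase of neutrophils, and beta-defensin 1 (DEFB1) damages microbial membranes. Complement factor B (CFB) is the protease of the alternative pathway that cleaves complement component 3 (C3), the protein that is deposited on microbes.

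Each array detected 39.7% to 46.8% of all probes at a detection p-value under 0.05, a comparison with the negative control beads of the same array. A probe was tested where it was detected on all 3 arrays of at least 1 group, which held for 21580 probes and for 10 of the 11 member probes. The C3 probe ILMN_1662523 was not tested, since it was detected on at most 1 array of any group. All 11 keratinocyte marker genes that had a probe were detected in all 8 groups. Of 11 leukocyte markers 1 to 3 were detected in a group (CD68, CSF1R, LYZ or ITGAM), and of 9 hepatocyte markers 1 or 2 (ALB or CPS1). The remaining leukocyte and hepatocyte markers, among them PTPRC and APOA1, were not detected on all 3 arrays of any group.

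Upstream sequence in the reference table was found for 2 of the 8 genes, LCN2 and CFB, both of which were higher with AMP-18 in SCC-61 at 2 h. The 250 bases before the start of each, from RefSeq (GRCh38.p14), are shown because these were the only members with such sequence. LCN2 is at chr9:128149203-128149452 and CFB at chr6:31945845-31946094, both on the plus strand. Capitals mark every match, on either strand, to GGGNNNNNCC (a loose form of the NF-kB site), TTCNNNGAA (STAT), TTNNGNAAT (C/EBP), TGANTCA (AP-1) or TATAAA (the TATA box), and neighbouring or overlapping matches run together.
LCN2: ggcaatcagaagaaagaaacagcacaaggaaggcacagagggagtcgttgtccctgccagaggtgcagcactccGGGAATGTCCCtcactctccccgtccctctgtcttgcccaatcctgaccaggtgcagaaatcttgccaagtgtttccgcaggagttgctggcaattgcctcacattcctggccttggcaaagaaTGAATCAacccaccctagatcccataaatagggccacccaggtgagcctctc
CFB: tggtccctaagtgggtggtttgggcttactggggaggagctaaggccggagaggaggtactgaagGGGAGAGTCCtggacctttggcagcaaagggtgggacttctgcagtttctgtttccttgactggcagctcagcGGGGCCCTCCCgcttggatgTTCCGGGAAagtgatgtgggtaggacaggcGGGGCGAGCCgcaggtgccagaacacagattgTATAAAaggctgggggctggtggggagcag

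LCN2 held 2 overlapping matches to GGGNNNNNCC, 1 on each strand (GGGAATGTCC, from 176 to 167 bases before the start, and GGAATGTCCC), and 1 match to TGANTCA, 52 to 46 bases before the start. CFB held 4 matches to GGGNNNNNCC, of which GGGGCCCTCC and GGGCCCTCCC overlap, 1 match to TTCNNNGAA (TTCCGGGAA, 92 to 84 bases before the start) and 1 to TATAAA, 30 to 25 bases before the start. Neither held TTNNGNAAT. Of 35116 upstream stretches of the same length in the reference table, 54.4% held GGGNNNNNCC, 6.57% TTCNNNGAA, 9.85% TTNNGNAAT, 6.57% TGANTCA and 10.7% TATAAA, so the loose NF-kB match is common and the others are less so. These are matches of letters, not sites shown to be bound.

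LCN2 was far brighter in SCC-61 than in HaCaT and was higher at 24 h than at 2 h in both lines. In SCC-61 its log2 intensities were 12.55, 12.57 and 12.50 on the untreated arrays at 2 h and 12.90, 12.95 and 12.96 with AMP-18, so that all treated arrays lay above all untreated ones. At 24 h they were 13.64, 13.65 and 13.64 untreated and 13.64, 13.67 and 13.58 with AMP-18, and these groups overlapped. The highest value of any probe in the table is 13.96, so LCN2 in SCC-61 at 24 h lay close to the top of the scale. In HaCaT, LCN2 read 7.95, 7.96 and 8.01 untreated and 7.95, 7.81 and 7.83 with AMP-18 at 2 h. The HaCaT arrays at 24 h read 9.31, 9.11 and 9.42 untreated and 9.36, 9.35 and 9.40 with AMP-18. In order of their means the SCC-61 groups stood first (both 24 h groups, then AMP-18 at 2 h, then untreated at 2 h) and the HaCaT groups after them, and only the treated and untreated groups at 24 h, in each line, overlapped with their neighbour.

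The SAA1 probes kept 1 order of cell lines, with every SCC-61 array above every HaCaT array, but they differed in brightness and in what they showed of AMP-18. The brightest, ILMN_2304512, is annotated to another SAA1 transcript than the other 2. It read 9.75, 9.67 and 9.65 on untreated SCC-61 arrays at 2 h and 10.07, 10.10 and 9.99 with AMP-18, without overlap. At 24 h the SCC-61 values were 10.74, 10.82 and 10.88 untreated and 10.77, 10.79 and 10.93 with AMP-18, and these overlapped. In HaCaT the probe read 5.55, 5.66 and 5.73 untreated and 5.77, 5.78 and 5.66 with AMP-18 at 2 h, and 4.41, 4.57 and 4.53 and 4.21, 4.19 and 4.32 at 24 h, the last group being below detection on all 3 arrays. ILMN_1701017 ranged from 8.37 to 10.09 over the 12 SCC-61 arrays and from 3.84 to 5.14 over the 12 HaCaT arrays, and was detected on 1 of 3 arrays in each HaCaT group at 24 h. ILMN_1808732 ranged from 5.01 to 6.08 in SCC-61, and in HaCaT it was detected on 1 array of each 2 h group and on none at 24 h. SAA1 and SAA2 are adjacent and nearly identical genes, so these probes may read RNA of both, and the split between the genes is uncertain.

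SAA2 was a transcript of SCC-61 on these arrays. Its probe read 5.65, 5.70 and 5.58 untreated and 5.82, 5.40 and 5.41 with AMP-18 at 2 h, and 7.28, 7.41 and 7.27 untreated and 7.09, 7.02 and 7.23 with AMP-18 at 24 h. It was detected on all 12 SCC-61 arrays and on 0 of 12 HaCaT arrays, where its values lay between 2.84 and 3.94.

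PI3 and SLPI, both inhibitors of neutrophil elastase and both whey acidic protein domain genes of the same chromosomal cluster, had unlike patterns. PI3 in SCC-61 read 10.27, 10.21 and 10.28 untreated and 10.79, 10.76 and 10.75 with AMP-18 at 2 h, and 10.37, 10.46 and 10.44 untreated and 10.30, 10.31 and 10.31 with AMP-18 at 24 h. The treated group at 2 h was thus the highest of all 8, and the 4 SCC-61 groups were all apart from one another. In HaCaT, PI3 read 9.30, 9.39 and 9.30 untreated and 9.23, 9.20 and 9.19 with AMP-18 at 2 h, but 5.71, 5.90 and 5.83 and 6.0, 5.75 and 5.73 at 24 h. All 6 HaCaT arrays at 24 h lay far below all 6 at 2 h, a larger fall with time than that of any other member. SLPI ranged from 10.23 to 10.64 over the 12 SCC-61 arrays and from 6.97 to 7.55 over the 12 HaCaT arrays, so that it varied little within either line.

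DEFB1 was the member whose level depended most on time in both lines. It read 6.19, 6.14 and 6.24 untreated and 6.23, 6.32 and 6.29 with AMP-18 in SCC-61 at 2 h, and 10.17, 10.21 and 10.28 untreated and 9.93, 9.95 and 9.96 with AMP-18 at 24 h. HaCaT gave 5.19, 5.16 and 5.06 untreated and 4.88, 4.59 and 4.74 with AMP-18 at 2 h, and 8.75, 8.75 and 8.77 untreated and 8.76, 8.56 and 8.58 with AMP-18 at 24 h. In order of the means all 4 groups at 24 h stood above all 4 at 2 h, and SCC-61 above HaCaT at each time. Neighbours in this order overlapped only for HaCaT at 24 h and SCC-61 at 2 h, in each case the treated against the untreated group.

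CFB, the protease of the alternative complement pathway, was high in SCC-61 and low in HaCaT. In SCC-61 it read 7.90, 7.85 and 7.76 untreated and 8.38, 8.30 and 8.13 with AMP-18 at 2 h, a pair of groups that did not overlap. At 24 h it read 10.44, 10.58 and 10.47 untreated and 10.47, 10.32 and 10.45 with AMP-18. The HaCaT arrays read 4.57, 4.52 and 4.61 untreated and 4.69, 4.46 and 4.38 with AMP-18 at 2 h, and 5.29, 5.87 and 5.76 and 5.78, 5.70 and 5.73 at 24 h. In both lines the groups at 24 h stood above those at 2 h without overlap, and every SCC-61 array stood above every HaCaT array.

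C3 was dimmer, and its 2 probes did not give the same picture. ILMN_1762260 read 5.79, 5.79 and 5.69 untreated and 6.11, 6.19 and 6.10 with AMP-18 in SCC-61 at 2 h, and 6.42, 6.53 and 6.45 and 6.60, 6.58 and 6.70 at 24 h, with none of these 4 groups overlapping. In HaCaT it was detected on 1 of 12 arrays, with values from 3.68 to 4.53. ILMN_1662523 stayed between 3.37 and 4.97 over all 24 arrays, was detected on 5 of them, and showed no order of lines, since all neighbouring groups overlapped.

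**Figure D1:**
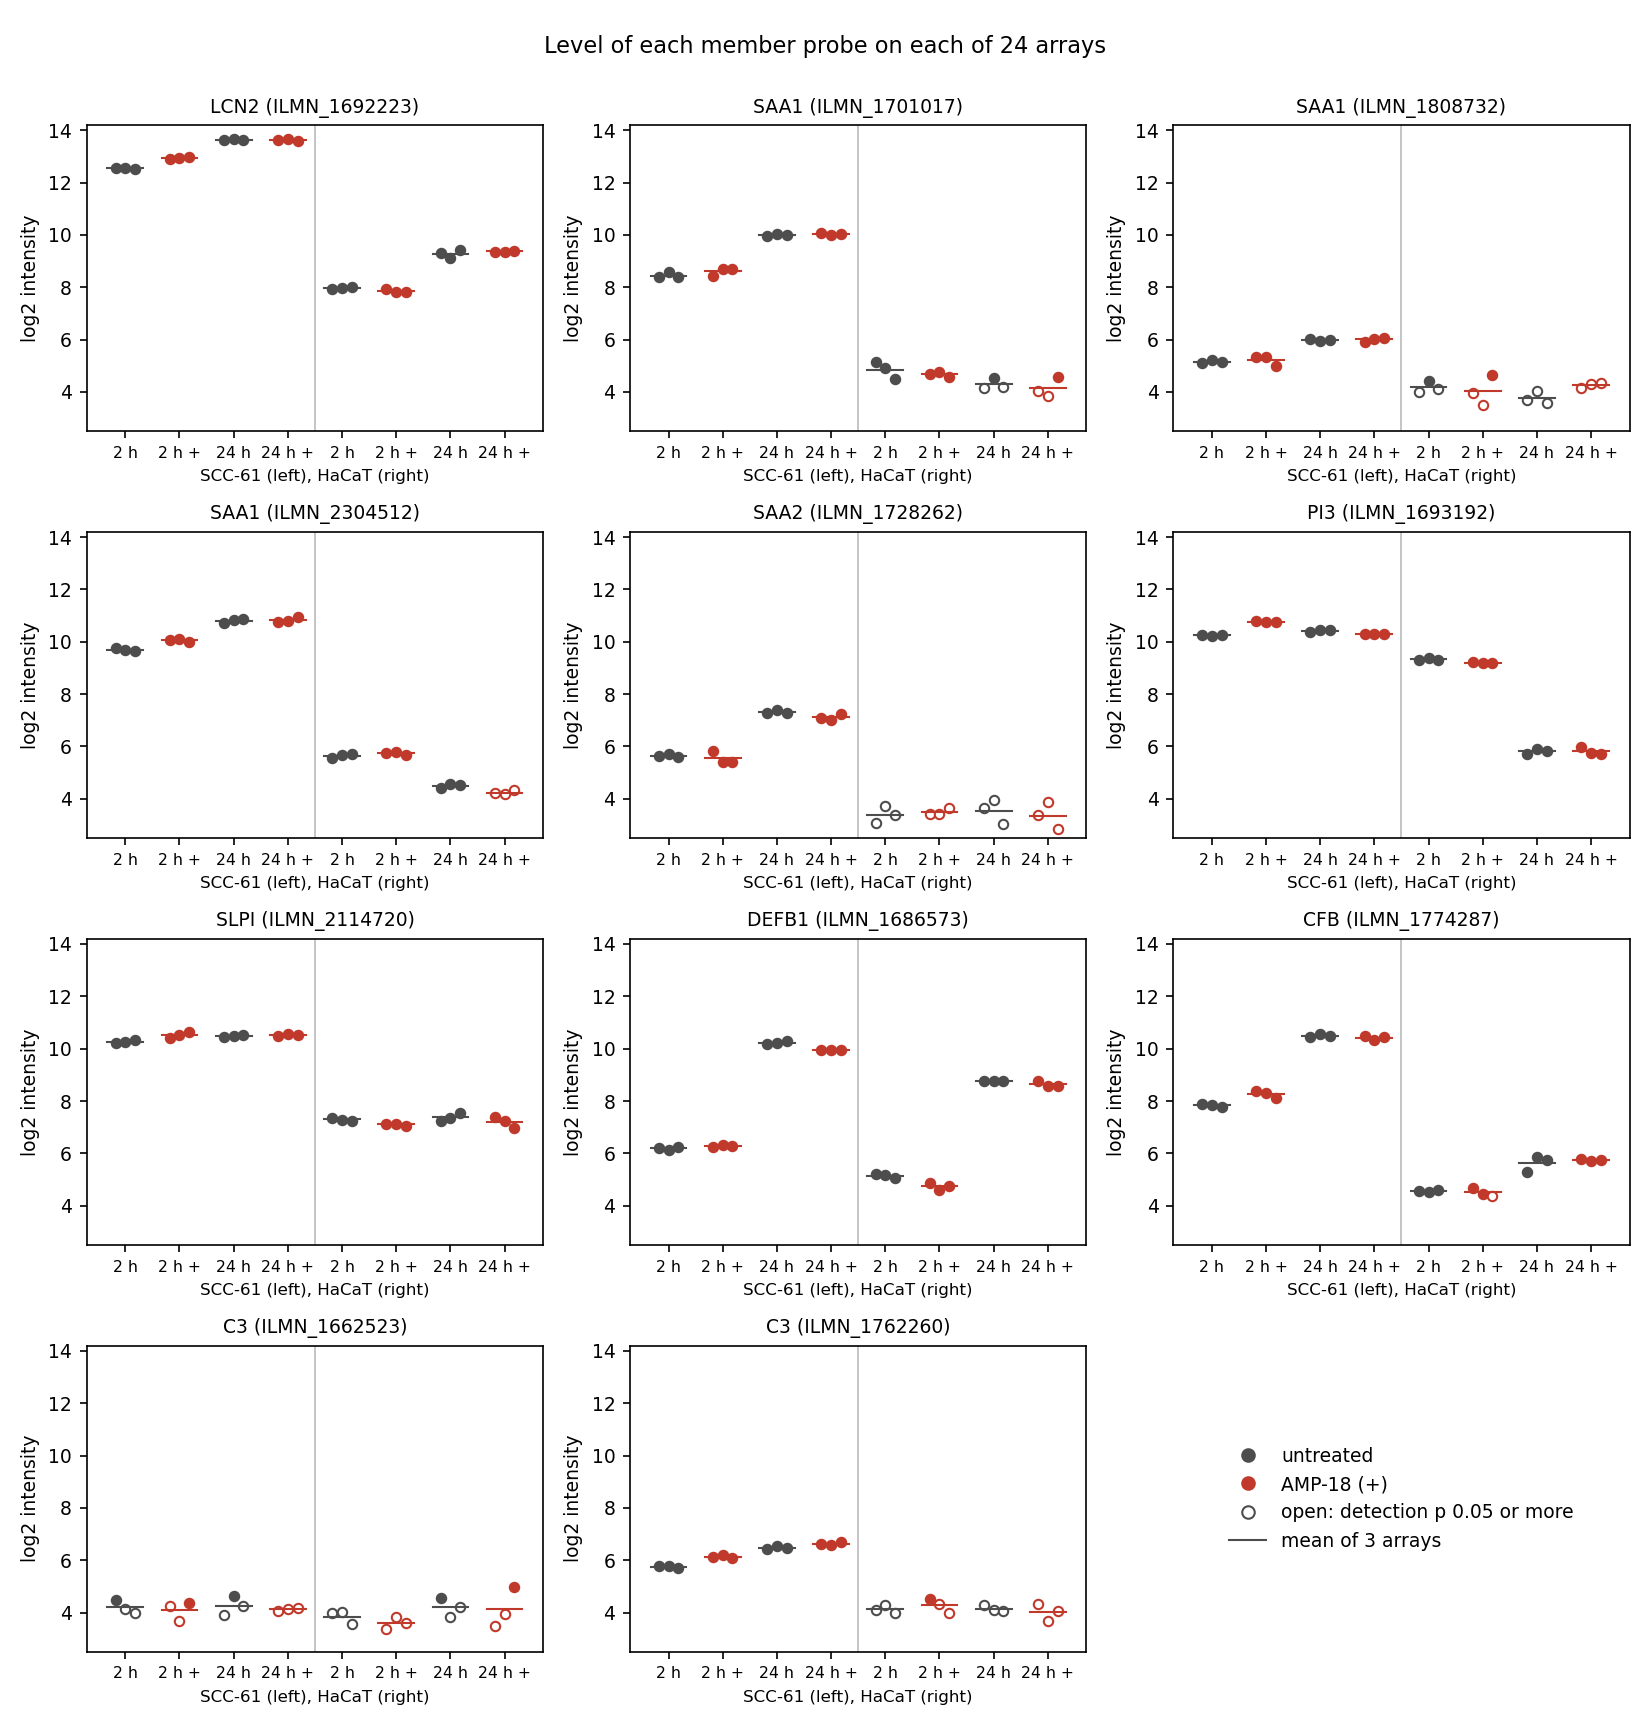
Normalized log2 intensity of each of the 11 member probes (vertical axis, same scale in every panel) on each of the 24 arrays, by group (horizontal axis; a plus sign marks AMP-18). Points are arrays, horizontal bars are means of 3 arrays, and open points are arrays on which the probe was not detected. SCC-61 lies above HaCaT at each time for every tested probe, DEFB1 is higher at 24 h than at 2 h in both lines, and PI3 in HaCaT is far lower at 24 h than at 2 h.

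With AMP-18 for 2 h, SCC-61 cells had more RNA of LCN2, SAA1, PI3 and CFB than untreated SCC-61 cells, by 1.29-fold to 1.43-fold. Of the 10 tested member probes 4 were higher and 0 lower at an adjusted p-value under 0.05 (limma, Benjamini-Hochberg over all 21580 tested probes), where 4.95% of all tested probes were higher. The median difference of the 10 probes was 0.31 on the log2 scale, against -0.01 over all tested probes. LCN2, SAA1 and CFB are among the genes that the study picked on these same samples, so their rise is not independent evidence. The folds that the study lists for these genes are far larger than the rises given here. They are nearer in size to the differences between the lines given below.

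PI3 had the largest of these differences, 0.51 ± 0.062 (difference of log2 means with its standard error, n = 3 in each group), which is 1.43-fold, with an adjusted p of 1.44e-05. CFB was higher by 0.44 ± 0.10 (1.35-fold, adjusted p = 0.00766 by limma) and LCN2 by 0.40 ± 0.055 (1.32-fold, adjusted p = 6.24e-05 by limma). The SAA1 probe ILMN_2304512 was higher by 0.36 ± 0.07 (1.29-fold, adjusted p = 0.00129 by limma). The other SAA1 probes did not pass, with 0.17 ± 0.14 for ILMN_1701017 (adjusted p = 0.527, limma) and 0.06 ± 0.19 for ILMN_1808732 (adjusted p = 0.891, limma), and the 95% intervals of both, -0.12 to 0.46 and -0.32 to 0.44, include the value of the brighter probe. SAA2 differed by -0.10 with an interval of -0.52 to 0.31. C3 differed by 0.38 ± 0.14 and SLPI by 0.25 ± 0.082, and although the treated arrays lay above the untreated ones for both, neither passed (adjusted p = 0.0873 and 0.0531, limma). Both passed with 16 added to each linear intensity or with array weights, C3 also with only the arrays compared, and SLPI also with a stricter filter (detected on all 24 arrays at a detection p under 0.01), with median scaling, with cyclic loess and without AMP-18 replicate 1, at 0.32 (adjusted p = 0.0245, limma). DEFB1 differed by 0.09 with an interval of -0.06 to 0.24.

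By the methods' t-test after Benjamini-Hochberg adjustment, only PI3 of these 4 passed. The keratinocyte markers moved with this result. Of the 11 measured, 8 were higher with AMP-18 and 0 lower, and the log2 of their summed intensity was 14.16 to 14.29 on the untreated and 14.44 to 14.47 on the treated arrays. For the leukocyte markers it was 10.23 to 10.24 untreated and 10.22 to 10.38 treated. The part of these markers in the result was not tested. Within a culture of a single line, more cells with a marker cannot be told apart from more RNA per cell.

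At 24 h no member differed between SCC-61 with and without AMP-18. By limma 0 of 10 probes passed (0.283% of all tested probes did, in either direction), and 1 had an unadjusted p under 0.05. That was DEFB1, at -0.27 ± 0.072 with all treated arrays below all untreated ones (adjusted p = 0.114). DEFB1 passed with array weights and with only the 6 arrays compared, and by the methods' t-test before adjustment PI3, DEFB1 and C3 passed. The interval of the difference was -0.12 to 0.10 for LCN2, -0.24 to 0.01 for PI3, -0.29 to 0.13 for CFB and -0.13 to 0.16 for the brightest SAA1 probe. The 2 h difference of each lay outside its interval, but this leaves out the error of the 2 h value. It is therefore no test of a fall, which did not pass for CFB or that SAA1 probe when tested directly.

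The fall of the AMP-18 effect from 2 h to 24 h was tested directly as the difference of the differences. It passed for PI3 (-0.63 ± 0.087, adjusted p = 0.000336 by limma) and LCN2 (-0.41 ± 0.078, adjusted p = 0.0048 by limma), 2 of 10 probes lower and 0 higher, where 1.47% of all tested probes were lower. CFB (-0.52, adjusted p = 0.0662), DEFB1 (-0.36, adjusted p = 0.0647) and the SAA1 probe ILMN_2304512 (-0.35, adjusted p = 0.0679) did not pass by limma. With array weights, with 16 added to each linear intensity and with only the arrays compared, these 3 probes passed as well. CFB also passed without AMP-18 2 h replicate 3 (-0.59, adjusted p = 0.0437 by limma), and the SAA1 probe without untreated 24 h replicate 1 (-0.39, adjusted p = 0.0493 by limma). Of the 11 keratinocyte markers 6 were lower in this comparison and 0 higher, with a median of -0.31 against -0.28 for the member probes. Their part was not tested, nor was that of the top of the scale, which LCN2 in SCC-61 approached at 24 h.

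In HaCaT no member passed at 2 h. By limma 0 of 10 probes differed (0.00463% of all tested probes did, in either direction), while 4 had an unadjusted p under 0.05, all of them lower with AMP-18. DEFB1 was the largest at -0.40 ± 0.072, with all treated arrays below all untreated ones and an adjusted p of 0.0602 (limma). On the treated arrays it was near the limit of detection. SLPI (-0.19), PI3 (-0.13) and LCN2 (-0.11) were the other 3, with adjusted p-values from 0.595 to 0.649 by limma. DEFB1 passed with array weights and also without untreated replicate 3 (-0.44, adjusted p = 0.0365 by limma) or AMP-18 replicate 1 (-0.47, adjusted p = 0.0228 by limma). The methods' t-test before adjustment called PI3, SLPI and DEFB1.

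At 24 h in HaCaT 1 of 10 probes passed, lower with AMP-18, where 0.964% of all tested probes were lower. It was the SAA1 probe ILMN_2304512, at -0.27 ± 0.07 (adjusted p = 0.0469, limma). That probe was below detection on all 3 treated arrays, and near the limit of detection on the untreated ones. Against the dimmest detected probes of the treated arrays the fall was 1.07-fold, a comparison of means that leaves out their error. The call was lost in 12 of the 17 alternatives run, among them leaving out any 1 of 5 of the 6 arrays compared, all but untreated replicate 1 (limma adjusted p = 0.0554 to 0.187). The SAA1 probe ILMN_1808732 went the other way by 0.51 ± 0.19 without passing (adjusted p = 0.158, limma), and it was detected on none of these 6 arrays. LCN2, PI3 and CFB differed by 0.09, 0.01 and 0.10, and none of them passed. SLPI (-0.18), DEFB1 (-0.12), SAA2 (-0.19), C3 (-0.12) and the SAA1 probe ILMN_1701017 (-0.14) were lower without passing. SAA2 and C3 were detected on none of these 6 arrays. Of the 10 probes 3 had an unadjusted p under 0.05 by limma. The median of the 10 was -0.12, against -0.02 over all tested probes. The change of the HaCaT effect from 2 h to 24 h passed for 0 of 10 probes by limma (0.158% of all tested probes, in either direction), with 4 at an unadjusted p under 0.05.

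**Figure D2:**
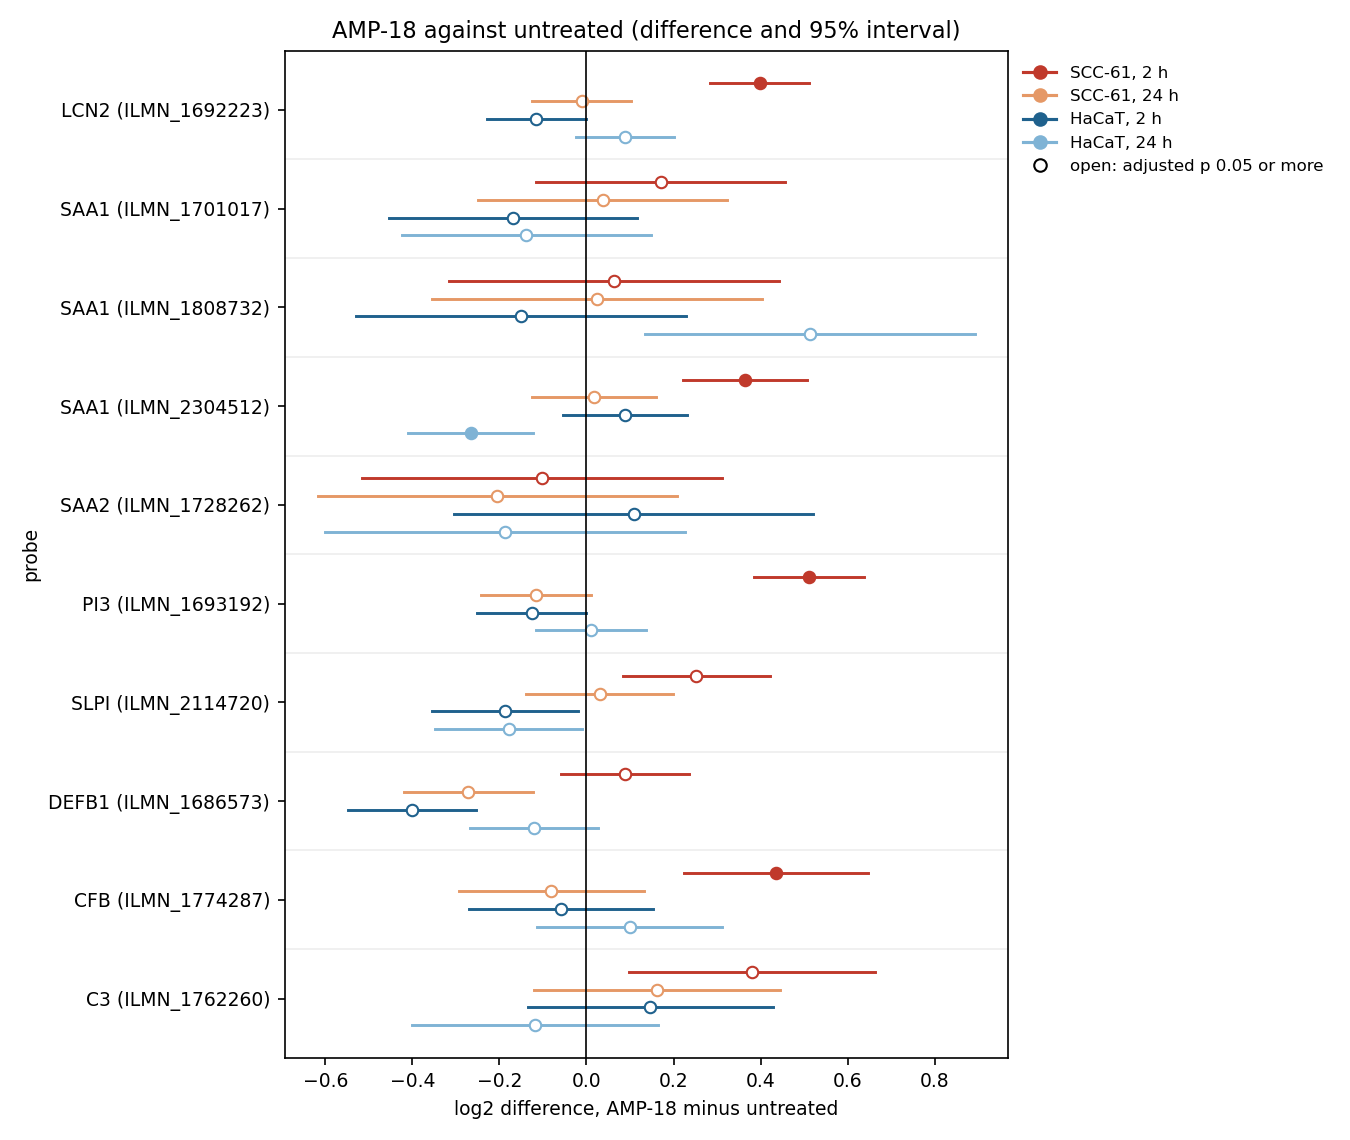
Difference between AMP-18 and untreated arrays (horizontal axis, log2 intensity) for the 10 tested member probes (vertical axis) in each line and at each time, with 95% intervals from the limma fit and n = 3 arrays a group. Filled points passed an adjusted p of 0.05. LCN2, PI3, CFB and 1 SAA1 probe are to the right of 0 in SCC-61 at 2 h, and the only other filled point is an SAA1 probe below detection in treated HaCaT at 24 h.

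The AMP-18 effect at 2 h differed between the lines for 4 of 10 probes, all higher in SCC-61, where 2.55% of all tested probes were. They were PI3 (0.64 ± 0.087, adjusted p = 0.000131 by limma), LCN2 (0.51 ± 0.078, adjusted p = 0.00035 by limma), DEFB1 (0.49 ± 0.10, adjusted p = 0.00535 by limma) and SLPI (0.44 ± 0.12, adjusted p = 0.0282 by limma). For PI3 and LCN2 the difference joined a rise in SCC-61 to a small unpassed decrease in HaCaT. For DEFB1 it joined 0.09 in SCC-61 to -0.40 in HaCaT, neither of which passed alone, and for SLPI 0.25 to -0.19. On the treated HaCaT arrays DEFB1 read 4.59 to 4.88, where the dimmest detected probes read 4.41 to 4.48. The DEFB1 difference thus rests in part on values near the limit of detection. It passed in all 21 alternatives, at 0.34 to 0.56. The SLPI call was lost without a trend in the fit and without any 1 of 8 of the 12 arrays compared (limma adjusted p = 0.0504 to 0.084), that is, all but SCC-61 untreated replicate 3, SCC-61 AMP-18 replicate 1, HaCaT untreated replicate 3 and HaCaT AMP-18 replicate 1. CFB gave 0.49 ± 0.15 (adjusted p = 0.0524, limma). It passed with cyclic loess, with 16 added, with only the arrays compared and with array weights, and also without SCC-61 AMP-18 replicate 3 (0.56, adjusted p = 0.0377 by limma) and without HaCaT AMP-18 replicate 1 (0.58, adjusted p = 0.0287 by limma). Of the 11 keratinocyte markers 6 were higher in SCC-61 in the same comparison and 0 lower, with a median of 0.35 against 0.39 for the member probes, and their part was not tested. At 24 h 0 of 10 probes differed by limma (0.148% of all tested probes, in either direction), with 1 at an unadjusted p under 0.05, the SAA1 probe ILMN_2304512 at 0.28.

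Without AMP-18, every tested member probe was higher in SCC-61 than in HaCaT at both times. At 2 h this held for 10 of 10 probes, where 26.9% of all tested probes were higher, and at 24 h for 10 of 10, where 29.8% were. SAA2, C3 and the SAA1 probe ILMN_1808732 passed the detection filter only through SCC-61 groups. Their higher level in SCC-61 therefore follows from the filter, and they are part of the counts and medians given here. The median difference of the 10 probes was 2.62 at 2 h and 4.07 at 24 h, against -0.04 and -0.06 over all tested probes. LCN2 differed most at 2 h, by 4.56 ± 0.055 (23.6-fold, adjusted p = 7.94e-32 by limma), and by 4.36 ± 0.055 at 24 h. The SAA1 probe ILMN_2304512 differed most at 24 h, by 6.31 ± 0.07 (79.3-fold, adjusted p = 4.67e-33 by limma), after 4.04 ± 0.07 at 2 h. On untreated HaCaT arrays at 24 h this probe read 4.41 to 4.57, where the dimmest detected probes read 4.36 to 4.39. The 24 h difference therefore rests on values near the limit of detection, and it ranged from 5.55 to 6.37 over the alternatives. CFB was higher by 3.27 ± 0.10 at 2 h and 4.85 ± 0.10 at 24 h, and SLPI by 2.97 ± 0.082 and 3.12 ± 0.082. On untreated HaCaT arrays at 2 h CFB read 4.52 to 4.61, where the dimmest detected probes read 4.39 to 4.42. The 2 h difference of CFB thus rests on values near the limit of detection, and it ranged from 2.62 to 3.32 over the alternatives. The study compared both lines on these same samples and picked LCN2, SAA1 and CFB. Their differences between the lines are therefore not independent evidence.

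PI3 and DEFB1 were the least different members at 2 h, at 0.92 ± 0.062 and 1.05 ± 0.072. At 24 h PI3 was apart by 4.61 ± 0.062 (24.3-fold) and DEFB1 by 1.47 ± 0.072 (2.76-fold). SAA2 and C3 were below detection in untreated HaCaT, so only bounds can be given. SAA2 was at least 2.36-fold higher in SCC-61 at 2 h and at least 7.71-fold at 24 h. C3 was at least 2.55-fold higher at 2 h and at least 4.28-fold at 24 h, and the SAA1 probe ILMN_1808732 at least 3.05-fold at 24 h. The log2 summed intensity of the leukocyte markers was 10.23 to 10.71 in untreated SCC-61 and 9.01 to 9.15 in untreated HaCaT, led by CD68 (higher by 2.91 at 24 h) and CSF1R (1.68). Only 4 leukocyte markers were tested, of which 2 were higher in SCC-61 at 2 h, 3 at 24 h and 0 lower. In untreated HaCaT only CD68 was detected on all 3 arrays of a group. Of the 11 keratinocyte markers 8 were lower in SCC-61 at each time, with medians of -0.50 at 2 h and -0.78 at 24 h. The part of either list was not tested. The lines were grown in different media, so line and medium cannot be told apart.

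**Figure D3:**
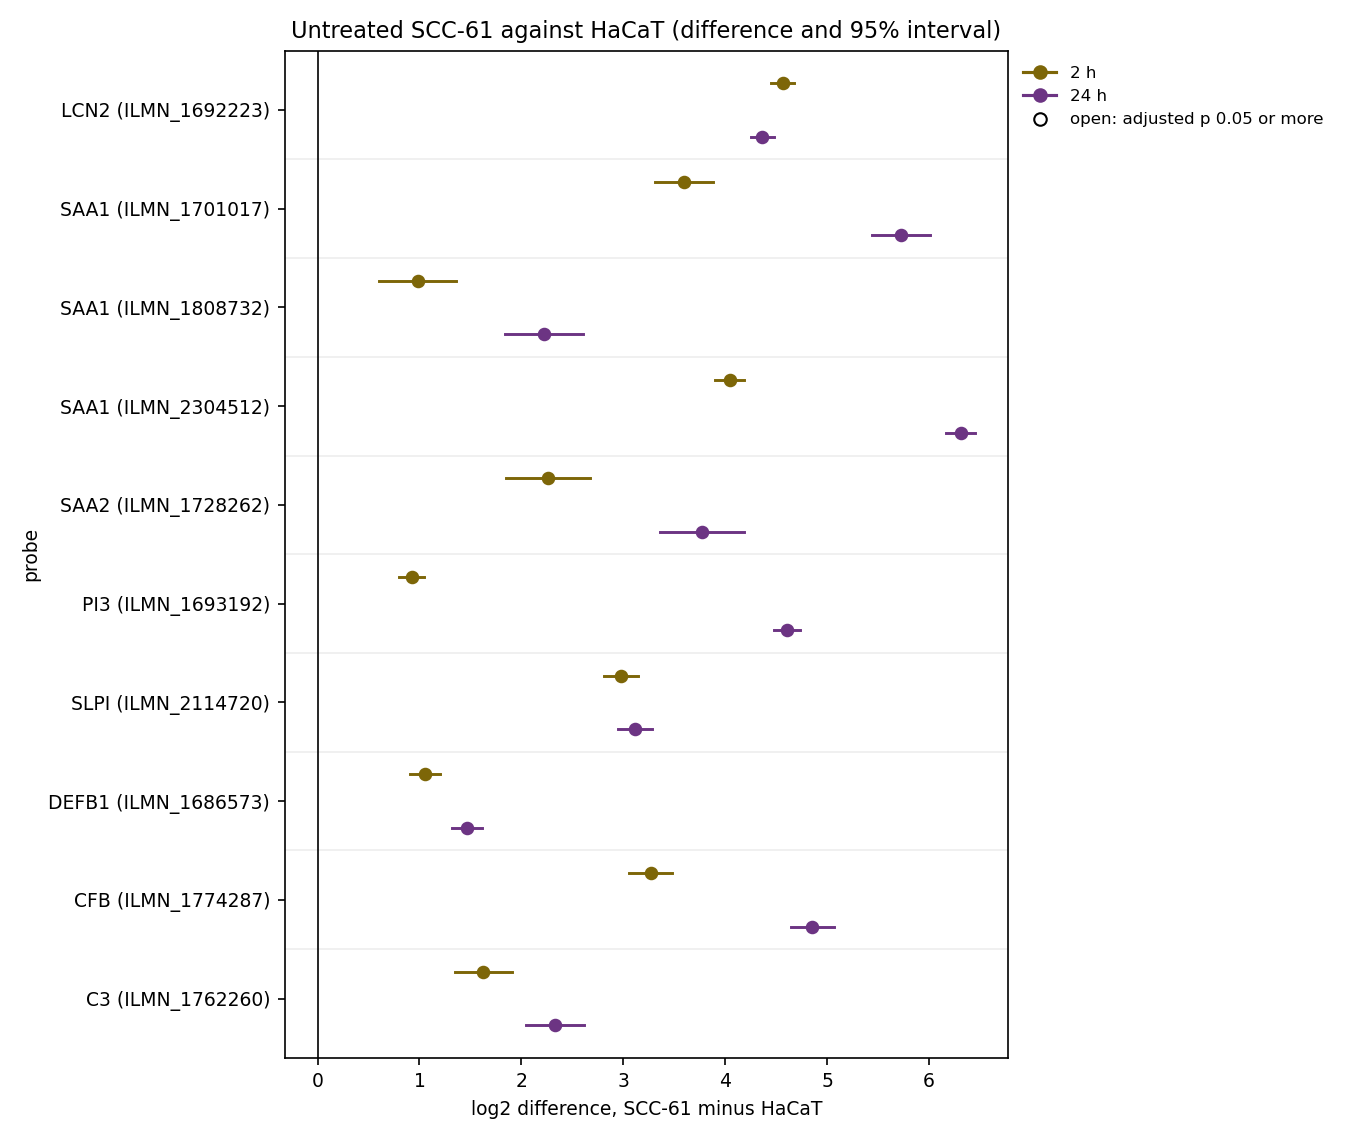
Difference between untreated SCC-61 and untreated HaCaT (horizontal axis, log2 intensity) for the 10 tested member probes (vertical axis) at 2 h and at 24 h, with 95% intervals from the limma fit and n = 3 arrays a group. All points are filled (adjusted p under 0.05) and to the right of 0, with SAA2 and C3 set against HaCaT arrays below detection, and PI3 moves from 0.92 at 2 h to 4.61 at 24 h. SAA2, C3 and the SAA1 probe ILMN_1808732 passed the detection filter only through SCC-61 groups.

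In untreated SCC-61, all the tested members were higher at 24 h than at 2 h, 10 of 10 probes, where 24.4% of all tested probes were higher. DEFB1 stood out with 4.03 ± 0.072 (16.3-fold, adjusted p = 9.42e-27 by limma), followed by CFB with 2.66 ± 0.10 (6.31-fold, adjusted p = 9.15e-19 by limma). SAA2 rose by 1.67 ± 0.20, the SAA1 probes by 1.57, 1.12 and 0.82, LCN2 by 1.10 ± 0.055 and C3 by 0.72 ± 0.14. The protease inhibitors rose least, SLPI by 0.23 ± 0.082 (adjusted p = 0.0221, limma) and PI3 by 0.17 ± 0.062 (adjusted p = 0.025, limma). Both of these calls were lost when either of 24 h replicates 2 or 3, or 2 h replicate 2, was left out (limma adjusted p up to 0.0717 for SLPI and up to 0.092 for PI3), the SLPI call also without 2 h replicate 1 (adjusted p = 0.0718, limma), and the PI3 call also with no filter on detection. Of the 11 keratinocyte markers 8 were higher at 24 h and 2 lower, with a median of 0.39, and the log2 summed intensity of the leukocyte markers was 10.23 to 10.24 at 2 h and 10.61 to 10.71 at 24 h. Their part was not tested.

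In untreated HaCaT the members parted. Of 10 probes 3 were higher at 24 h and 3 lower, where 28.6% of all tested probes were higher and 29.3% lower, so the share of members in each direction was near that of all probes. DEFB1 rose by 3.61 ± 0.072 (12.3-fold, adjusted p = 1.54e-26 by limma), LCN2 by 1.30 ± 0.055 (2.47-fold, adjusted p = 1.25e-18 by limma) and CFB by 1.07 ± 0.10 (2.1-fold, adjusted p = 2.52e-10 by limma). PI3 fell by 3.52 on the log2 scale, 11.4-fold, with an adjusted p of 7.91e-28 (limma). The SAA1 probe ILMN_2304512 fell by 1.14 (adjusted p = 7.98e-15, limma) and ILMN_1701017 by 0.56 (adjusted p = 0.000903, limma), the latter detected on 1 of 3 arrays at 24 h, with overlapping groups and lost in the methods' t-test. At 24 h ILMN_2304512 was itself just above the dimmest detected probes of those arrays. The third SAA1 probe, ILMN_1808732, was detected on 1 of these 6 arrays and did not pass, but did so without 24 h replicate 2 (-0.56, adjusted p = 0.021 by limma) or 2 h replicate 1 (-0.51, adjusted p = 0.04 by limma). SLPI differed by 0.08 with an interval of -0.09 to 0.25. Of the 11 keratinocyte markers 8 were higher at 24 h and 1 lower, with a median of 0.40, and their part was not tested. The cultures of 2 h and 24 h differ in time in low serum as well as in any handling on the day, which cannot be told apart.

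The change with time differed between the lines for 9 of 10 probes, with 8 more positive in SCC-61, where 18.9% of all tested probes were, and 1 less positive, where 20.8% were. The 8 include SAA2 and C3, detected on none of the 6 untreated HaCaT arrays, and the SAA1 probe ILMN_1808732, detected on 1 of them. Their change in HaCaT was not measured above background, so the values of these 3 are not estimates of a difference in RNA. PI3 led with 3.68 ± 0.087 (adjusted p = 3.98e-23, limma), followed by the SAA1 probes ILMN_2304512 with 2.27 ± 0.099 and ILMN_1701017 with 2.13 ± 0.20, the latter detected on 1 of 3 untreated HaCaT arrays at 24 h, and CFB with 1.59 ± 0.15. On those HaCaT arrays ILMN_2304512 was just above the dimmest detected probes, and so was CFB on the untreated HaCaT arrays at 2 h. DEFB1, which rose steeply in both lines, differed by 0.41 ± 0.10 (adjusted p = 0.0016, limma). LCN2 was the exception, having risen slightly more in HaCaT, with -0.20 ± 0.078 (adjusted p = 0.0422, limma), a call lost in 15 of 22 alternatives, among them leaving out any 1 of 9 of the 12 arrays compared (limma adjusted p = 0.0593 to 0.169), that is, all but SCC-61 2 h replicate 3, HaCaT 2 h replicate 3 and HaCaT 24 h replicate 2. LCN2 in SCC-61 at 24 h was close to the top of the scale, and the part of this limit was not tested. SLPI did not pass, at 0.14 ± 0.12.

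**Figure D4:**
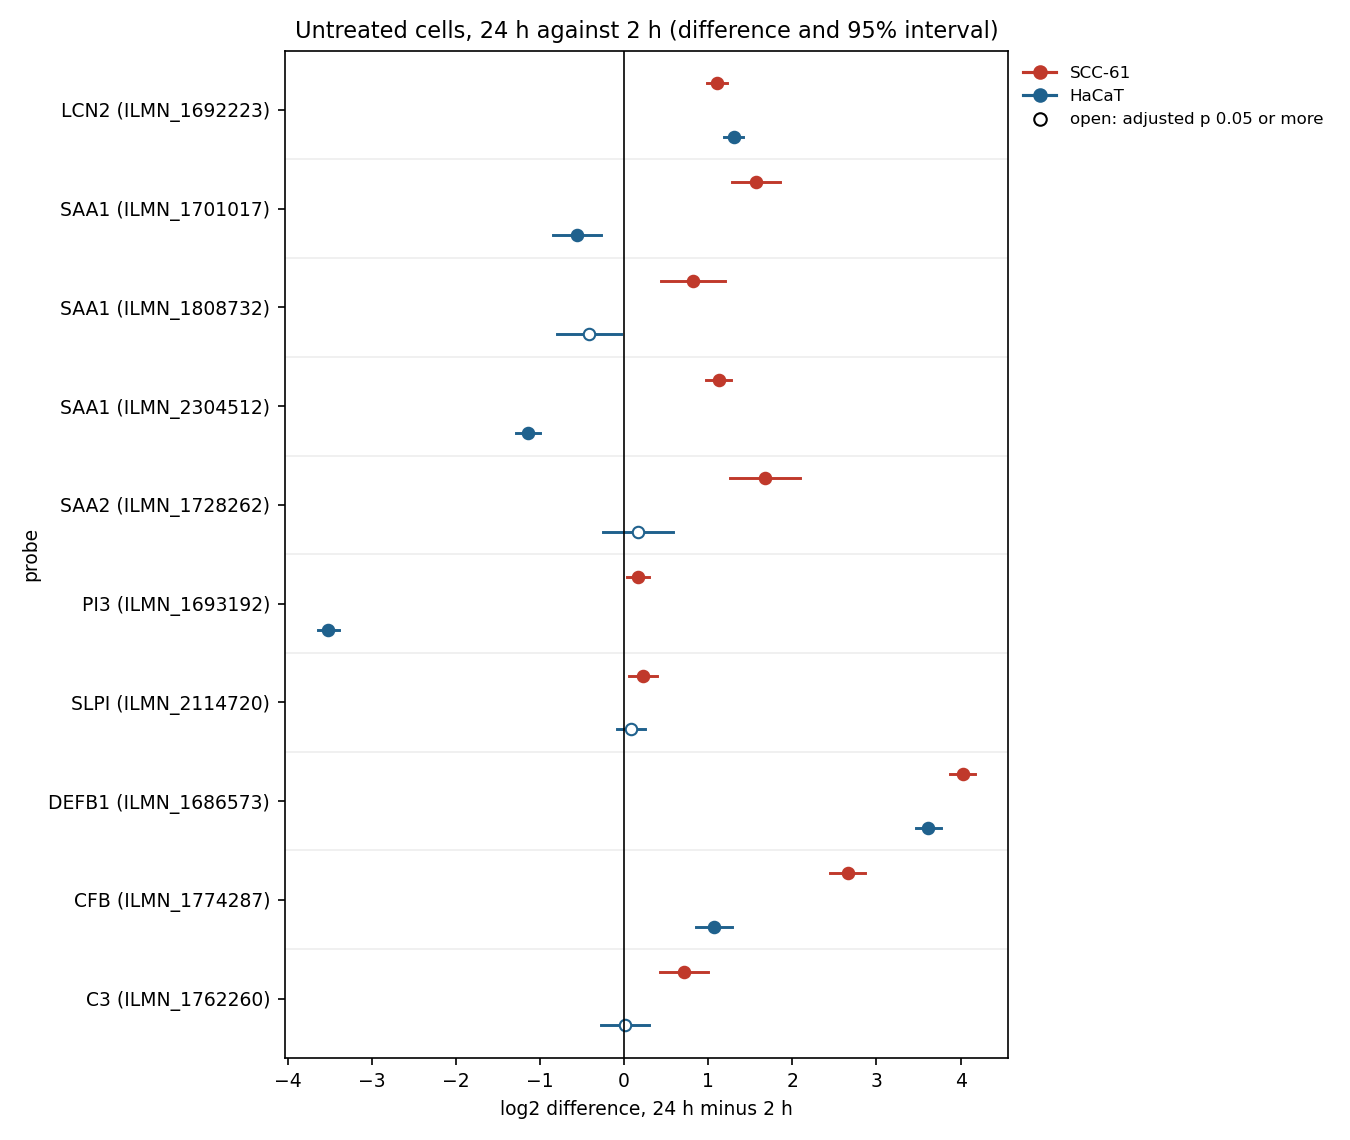
Difference between 24 h and 2 h in untreated cells (horizontal axis, log2 intensity) for the 10 tested member probes (vertical axis) in SCC-61 and in HaCaT, with 95% intervals from the limma fit and n = 3 arrays a group. Filled points passed an adjusted p of 0.05. DEFB1 rises by 4.03 in SCC-61 and 3.61 in HaCaT, whereas PI3 changes by 0.17 in SCC-61 and by -3.52 in HaCaT, and SAA2 and C3 were detected on none of the untreated HaCaT arrays.

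Over the 12 SCC-61 arrays, 8 of the 10 tested probes (all but PI3 and SLPI) varied together, with Pearson's r from 0.85 to 0.99 between any pair. PI3 had r from -0.38 to -0.0076 with these 8, and SLPI from 0.37 to 0.71. The arrays fall into 2 h and 24 h groups, so these values mainly describe the gap between the times. In HaCaT, where LCN2, PI3, SLPI and DEFB1 were detected on all 12 arrays, LCN2 and DEFB1 had r = 0.99 with each other and -0.99 with PI3. The genes most like a member over the 12 arrays of a line were, in SCC-61, TAPBP (r = 0.996) for LCN2, UBD (0.997) for the SAA1 probe ILMN_1701017, IGFBP6 (0.995) for ILMN_2304512, SLC50A1 (0.995) for SAA2, RHBDF2 (0.999) for CFB, TMEM42 (0.999) for DEFB1, COL5A1 (0.988) for C3, RTN3 (0.948) for PI3 and UNC50 (0.925) for SLPI, out of 13126 candidate probes. In HaCaT they were MSRB1 (0.998) for LCN2, CTDSP1 (0.999) for DEFB1, RRS1 (0.9995) for PI3 and MMP14 (0.910) for SLPI, out of 12085.

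The other genes of the same pathways are read against all tested probes, of which 4.95% were higher and 3.69% lower with AMP-18 in SCC-61 at 2 h. Of 20 other antimicrobial and acute-phase genes tested 1 was higher and 0 lower, WFDC2, a relative of SLPI, at 0.31 (adjusted p = 0.0419, limma). Of 15 other complement genes 0 were higher and 2 lower, CFD, the protease that cleaves factor B, at -0.38 and C1QBP at -0.19, so CFB rose while CFD fell. Of 36 known inducers and regulators 4 were higher (11.1%) and 0 lower. These were the cytokine IL6 (0.53), which the study also picked on these samples, ZC3H12A (0.53), a ribonuclease that degrades cytokine mRNAs, the tumor necrosis factor receptor TNFRSF1A (0.33) and the interferon gamma receptor chain IFNGR1 (0.23). Of 17 receptors, carriers and protease partners 4 were higher (23.5%) and 0 lower. They were GRN, whose protein SLPI protects from elastase (0.37), the lipoprotein receptor SCARB1 (0.35), SERPINB3 (0.34) and the skin protease KLK5 (0.24). The medians of the 4 lists were 0.14, 0.09, 0.13 and 0.12, against -0.01 over all tested probes.

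At 24 h the same 4 lists held 2 genes lower and 0 higher in SCC-61, where 0.13% of all tested probes were lower. They were KLK5 at -0.27 and SERPINB1, an elastase inhibitor, at -0.28. In HaCaT at 24 h 2 were higher and 0 lower, where 0.639% of all tested probes were higher. They were S100A9, a subunit of the metal-binding protein calprotectin, at 0.35 and GRN at 0.30. Both also differed between the lines at 24 h, S100A9 by -0.42 and GRN by -0.48, with the lower effect in SCC-61, where 0.0463% of all tested probes were lower. In the difference between lines at 2 h, 5 of the 36 inducers and regulators were higher in SCC-61 (13.9%, against 2.55% of all tested probes), namely ZC3H12A (0.65), IL6 (0.50), TNFRSF1A (0.44), OSMR (0.41) and IFNGR1 (0.31), and so were 4 of the 17 partners (23.5%), GRN (0.50), SERPINB3 (0.46), SCARB1 (0.44) and KLK5 (0.39).

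In untreated cells at 24 h 29.8% of all tested probes were higher in SCC-61 than in HaCaT and 34.6% lower. Each of the 4 lists held a larger share of higher genes and a smaller share of lower genes. A listed gene that passed the detection filter only through SCC-61 groups is higher there by the filter. Such genes were not counted apart, so the shares and differences below are a description only. Of the 20 other antimicrobial and acute-phase genes 13 were higher (65%) and 0 lower. The largest were the calprotectin subunits S100A9 (6.53) and S100A8 (6.29), followed by SAA4 (3.93), the antichymotrypsin gene SERPINA3 (3.82) and the chemokine CCL20 (3.55). Of the 36 inducers and regulators 25 were higher (69.4%) and 3 lower, with IL1B at 5.43, IL1A at 5.41 and IL6 at 4.63, while IL1RN, the antagonist of the interleukin receptor, was lower at -2.98. Of the 15 other complement genes 8 were higher (53.3%) and 3 lower, with the classical pathway proteases C1S at 3.47 and C1R at 3.20. The 17 receptors, carriers and protease partners were nearest to the shares of all probes, with 7 higher (41.2%) and 5 lower (29.4%) and a median of 0.06. From 2 h to 24 h in untreated SCC-61, 11 of the 20 rose (55%, against 24.4% of all tested probes) and 1 fell (5%, against 27.5%), with SERPINA3 at 2.91 and SAA4 at 1.75. In untreated HaCaT 3 of the 20 rose and 3 fell, 15% each way against 28.6% and 29.3% of all tested probes. Among those that fell were S100A9 (-1.95) and S100A8 (-1.70), as PI3 did. Of the 36 inducers and regulators 12 rose (33.3%) and 11 fell (30.6%), near the shares of all tested probes. The interleukin genes IL1B (-3.66) and IL1A (-2.56) were among those that fell, and the epithelial factor ELF3 (3.04) among those that rose.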

How the data were processed

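RNA from 24 samples was measured on Illumina HumanHT12v4 bead arrays. The deposited log2 intensities had been normalized between arrays by the authors (column medians 4.218 to 4.220), with GenomeStudio 2011.1 named in the submitters' processing notes and the background correction not given in the sources used here. A second deposited table gives detection p-values. Both were used unchanged. Probes were named from the platform annotation (30113 with 1 symbol, 8 with several, 17202 with none), and 30081 of the probes with 1 symbol were found in the reference table.

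A model of 8 group means over all 24 arrays was estimated in R 4.3.3 using limma 3.58.1 (lmFit, eBayes with a trend, 16 residual and 12.6 prior degrees of freedom). Tests are two-sided and adjusted by the Benjamini-Hochberg method over 21580 probes, with a threshold of 0.05. The number of arrays limits the precision. For a group with no detected array, the fold is a bound, taken against that probe or, if larger, the dimmest detected probe of the array. The bound compares means and leaves out their error. The text names all probes of the 8 genes, from other lists the genes past the threshold in an AMP-18 comparison with the largest changes, and for untreated cells a few genes chosen after their values were seen. Where such a gene had several probes, the brightest was taken. The 8 genes and all lists were chosen with earlier results of these data known. Alternatives covered filters, normalization, the model, the methods' t-test and leaving out each array. Figures were drawn with matplotlib 3.10.9.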

Additional observations from a re-analysis of the deposited data

Results flagged for a closer look

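Several members had an effect that differed between the lines or the times by the test of the difference itself (limma, adjusted over all tested probes, n = 3 arrays a group). For the AMP-18 effect at 2 h, SCC-61 exceeded HaCaT by 0.51 for LCN2 (ILMN_1692223, adjusted p = 0.00035), by 0.64 for PI3 (ILMN_1693192, adjusted p = 0.000131), by 0.44 for SLPI (ILMN_2114720, adjusted p = 0.0282) and by 0.49 for DEFB1 (ILMN_1686573, adjusted p = 0.00535) on the log2 scale. For the AMP-18 effect in SCC-61, the 24 h value less the 2 h value was -0.41 for LCN2 and -0.63 for PI3. For the change of untreated cells from 2 h to 24 h, SCC-61 less HaCaT gave -0.20 for LCN2, 2.13, 1.24 and 2.27 for the SAA1 probes ILMN_1701017, ILMN_1808732 and ILMN_2304512, 1.51 for SAA2, 3.68 for PI3, 0.41 for DEFB1, 1.59 for CFB and 0.70 for C3. SAA2 and C3 were detected on none of the 6 untreated HaCaT arrays and ILMN_1808732 on 1, so for these 3 probes the HaCaT change was not measured above background and the value is not an estimate of a difference in RNA. LCN2 in SCC-61 at 24 h was close to the top of the scale. CFB in untreated HaCaT and DEFB1 in HaCaT with AMP-18 were near the limit of detection at 2 h. ILMN_2304512 in untreated HaCaT was near it at 24 h. Groups of 3 arrays are too small for a test of single outlying samples.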

How the results depend on the processing

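Of 56 calls of a member probe in a comparison, 47 held and 0 reversed under every alternative in which the probe was tested, and 9 were lost under at least 1. For SCC-61 with AMP-18 at 2 h, 4 probes passed, 1 by the methods' t-test after Benjamini-Hochberg adjustment, and up to 6 elsewhere, with SLPI or C3 among those that passed. Between lines at 2 h the count of 4 went from 3 to 6 under alternatives other than leaving out an array. At 24 h in SCC-61 the count of 0 became 1 with array weights or only the arrays compared, and 3 by the methods' t-test without adjustment. In HaCaT at 2 h it went from 0 to 1 with array weights and 3 by the unadjusted methods' t-test. In HaCaT at 24 h the count of 1 became 0 with no filter, with the stricter filter, with 16 added, with only the arrays compared, with no trend, with array weights and by the adjusted methods' t-test, and 2 by the unadjusted methods' t-test. The AMP-18 effect in SCC-61 at 24 h against 2 h went from 2 to 5 with 16 added, only the arrays compared or array weights. The stricter filter (all 24 arrays at a detection p under 0.01) left 3 member probes, LCN2, PI3 and SLPI, of which 3 passed in each untreated comparison of the lines and in untreated SCC-61 over time, 2 in untreated HaCaT over time and 2 in the time course between lines. Leaving out 1 array at a time gave counts of 4 to 5 for AMP-18 in SCC-61 at 2 h, 0 to 0 at 24 h, 0 to 1 in HaCaT at each time, 3 to 5 between lines at 2 h, 2 to 3 for SCC-61 over time, 8 to 10 in untreated SCC-61 over time, 6 to 7 in untreated HaCaT and 8 to 9 for the time course between lines.

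Replicate numbers gave no sign of pairing, since 0 of 12 pairs of the same number had residuals correlated over 0.1 (-0.17 to 0.048). With the replicate number as a block, the count went from 1 to 0 for HaCaT at 24 h (adjusted p range over alternatives 0.0131 to 0.566) and was the same in the other 12 comparisons.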
